A study of Mus musculus with 30 samples.

Results

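The 34 genes described here carry fatty acids into the muscle cell, activate them, move them into mitochondria and oxidise them there. They were taken from a list of symbols named for their function, and earlier results of these data were known when the list was chosen. All 34 were found among the 33076 genes of the count table. Expression was measured by bulk RNA-seq in diaphragm from 15 male mice that model spinal and bulbar muscular atrophy (SBMA), in which muscle weakens and motor neurons are lost. SBMA mice carried the disease transgene BACfxAR121, whose genotype the sample labels spell BACfxR121. Control mice were littermates that carried BACfxAR121 as well, together with HSA-Cre, a Cre recombinase under the human skeletal actin promoter that acts in skeletal muscle. The controls are therefore muscle-rescued transgenic animals and not wild-type mice. The diaphragm of each animal was divided into perisynaptic muscle, where the nerve endings lie, and extrasynaptic muscle away from them. At 15 weeks of age there were 4 SBMA and 3 control animals, and at 26 weeks 4 of each, which makes 8 groups and 30 libraries.

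Muscle takes up fatty acids that lipoprotein lipase frees from circulating triglyceride, and membrane transporters and binding proteins bring them to the cytosol. Acyl-CoA synthetases couple them to coenzyme A, the carnitine shuttle passes them through the mitochondrial membranes, and rounds of dehydrogenation, hydration, a second dehydrogenation and thiolysis cut acetyl-CoA units from the chain. Electrons from the first dehydrogenation reach the respiratory chain through the electron transfer flavoprotein. The diaphragm works without rest and depends on oxidative fuel use.

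Total counts lay between 16280873 and 34694446 per library, and the scarcest member in any library still had 241 counts. Levels are in CPM, a library's counts divided by its size, after scaling with trimmed-mean (TMM) factors. One library stood apart: the perisynaptic one of control animal 2 at 26 weeks had a median Spearman correlation of 0.948 with the other libraries of its group, against 0.98 to 0.994 for the other 29 libraries. In this library genes with exons of at least 6885 bases lay 0.63 log2 units lower, relative to genes with at most 2778, than on average over all libraries, and the other 29 lay between -0.30 and 0.22. The extrasynaptic library of the same animal had the value -0.30. Results at 26 weeks are therefore also given without this animal. In extrasynaptic muscle the value was higher in every SBMA library than in every control. It was 0.15 to 0.22 against -0.30 to 0.08 at 26 weeks, and 0.11 to 0.13 against -0.18 to 0.05 at 15 weeks. In perisynaptic muscle at 26 weeks it was -0.63 to -0.18 in animals 1 and 2 and 0.05 to 0.16 in animals 3 and 4 of both genotypes. Members run from 823 exonic bases (Fabp3) to 10483 (Acsl1), and the part of length in their fold changes was not tested.

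Per kilobase of exon, Fabp3, which encodes the cytosolic fatty acid-binding protein of heart and muscle, was the most abundant member, with a mean of 837 CPM per kb over the 30 libraries. The long-chain and very-long-chain acyl-CoA dehydrogenase genes Acadl and Acadvl came next, with 449 and 377 CPM per kb, followed by the lipoprotein lipase gene Lpl (335), the thiolase gene Acaa2 (324) and the pyruvate dehydrogenase kinase gene Pdk4 (291). At the low end stood Cpt1a, the liver form of carnitine palmitoyltransferase 1, with 4.49 CPM per kb, and the acyl-CoA synthetase gene Acsl5 with 3.78. Cpt1b, the muscle form of carnitine palmitoyltransferase 1, had 9.77 CPM per kb. That value is uncertain, because the readthrough locus Gm44502 covers 2744 of the 3372 exonic bases of Cpt1b on the same strand in GENCODE, and its reads were not analysed here. The exon length used is the union of all annotated exons of a gene, 10478 bases for Lpl and 823 for Fabp3, so the order depends on it. Before division by length Lpl had a mean of 3507 CPM and Fabp3 one of 689 CPM. Across the 8 group means the level of Lpl spanned 3.07-fold and that of Fabp3 2.21-fold, the widest and second widest spans of the 34. Eci2 spanned 1.05-fold.

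At 26 weeks more fatty acid uptake and oxidation genes fell than rose in SBMA relative to control muscle under TMM scaling. In extrasynaptic muscle 20 members fell, 3 rose and 11 were not called, where 32.2% of the 15526 genes tested were called, 16.1% as lower and 16.1% as higher. In perisynaptic muscle 8 fell, 2 rose and 24 were not called, where 14% of 15735 genes were called, 5.97% as lower and 8.04% as higher. At 15 weeks edgeR called Lpl alone, as lower in extrasynaptic muscle (1.22% of genes called), where DESeq2 called 5 members, Fabp3, Acaa2, Eci1 and Mlycd besides Lpl. No member was called in perisynaptic muscle (0.21% called), where 8 members had an unadjusted p under 0.05 in edgeR and DESeq2 called none. The median log2 fold change of the 34 was -0.31 in extrasynaptic and -0.23 in perisynaptic muscle at 26 weeks, beside -0.03 and -0.02 over all genes tested, and -0.06 and -0.06 at 15 weeks, beside -0.01 over all genes in either region. All SBMA libraries lay below all controls for 14 members and above for 3 in extrasynaptic muscle at 26 weeks, against 14.6% and 15.4% of all genes, and for 9 and 2 in perisynaptic muscle, against 8.63% and 9.97%; at 15 weeks the counts were 6 and 0 in extrasynaptic (7.69% and 8.08%) and 5 and 0 in perisynaptic muscle (5.26% and 6.54%). A gene was called where its p from edgeR's quasi-likelihood test, after Benjamini-Hochberg adjustment across the whole table, was under 0.05, and log2 fold changes are SBMA over control with their standard errors.

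The split depends on the scaling. With total counts as library size the median gene moved to 0.18 in extrasynaptic and 0.24 in perisynaptic muscle at 26 weeks, and 8 members were then called lower and 7 higher in extrasynaptic, and 3 lower and 7 higher in perisynaptic muscle. Of all genes called, the share that was higher was 84.8% with total counts against 49.97% with TMM in extrasynaptic muscle, and 91.7% against 57.4% in perisynaptic muscle. With total counts 1 member was called lower and 4 higher in extrasynaptic muscle at 15 weeks, and with age in SBMA 2 lower and 3 higher in extrasynaptic and 1 lower and 3 higher in perisynaptic muscle. All fold changes below are relative to the median gene as TMM scaling sets it. Lpl, Fabp3 and Acaa2 were called lower, and Cpt1a and Acads higher, in both regions at 26 weeks under either scaling. In extrasynaptic muscle Acsl1, Echs1, Eci1, Etfb and Plin5 were called lower under either scaling too. Every other fall called under TMM scaling at 26 weeks lost its call with total counts. With total counts Slc27a4, Slc22a5, Acadl, Eci2 and Acot2 were called higher in both regions as well. Without control animal 2 at 26 weeks, 12 members were called lower and 3 higher in perisynaptic muscle, and 22 lower and 3 higher in extrasynaptic muscle. In bulk tissue, fewer cells of a type and less RNA per cell cannot be told apart.

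**Figure D1:**
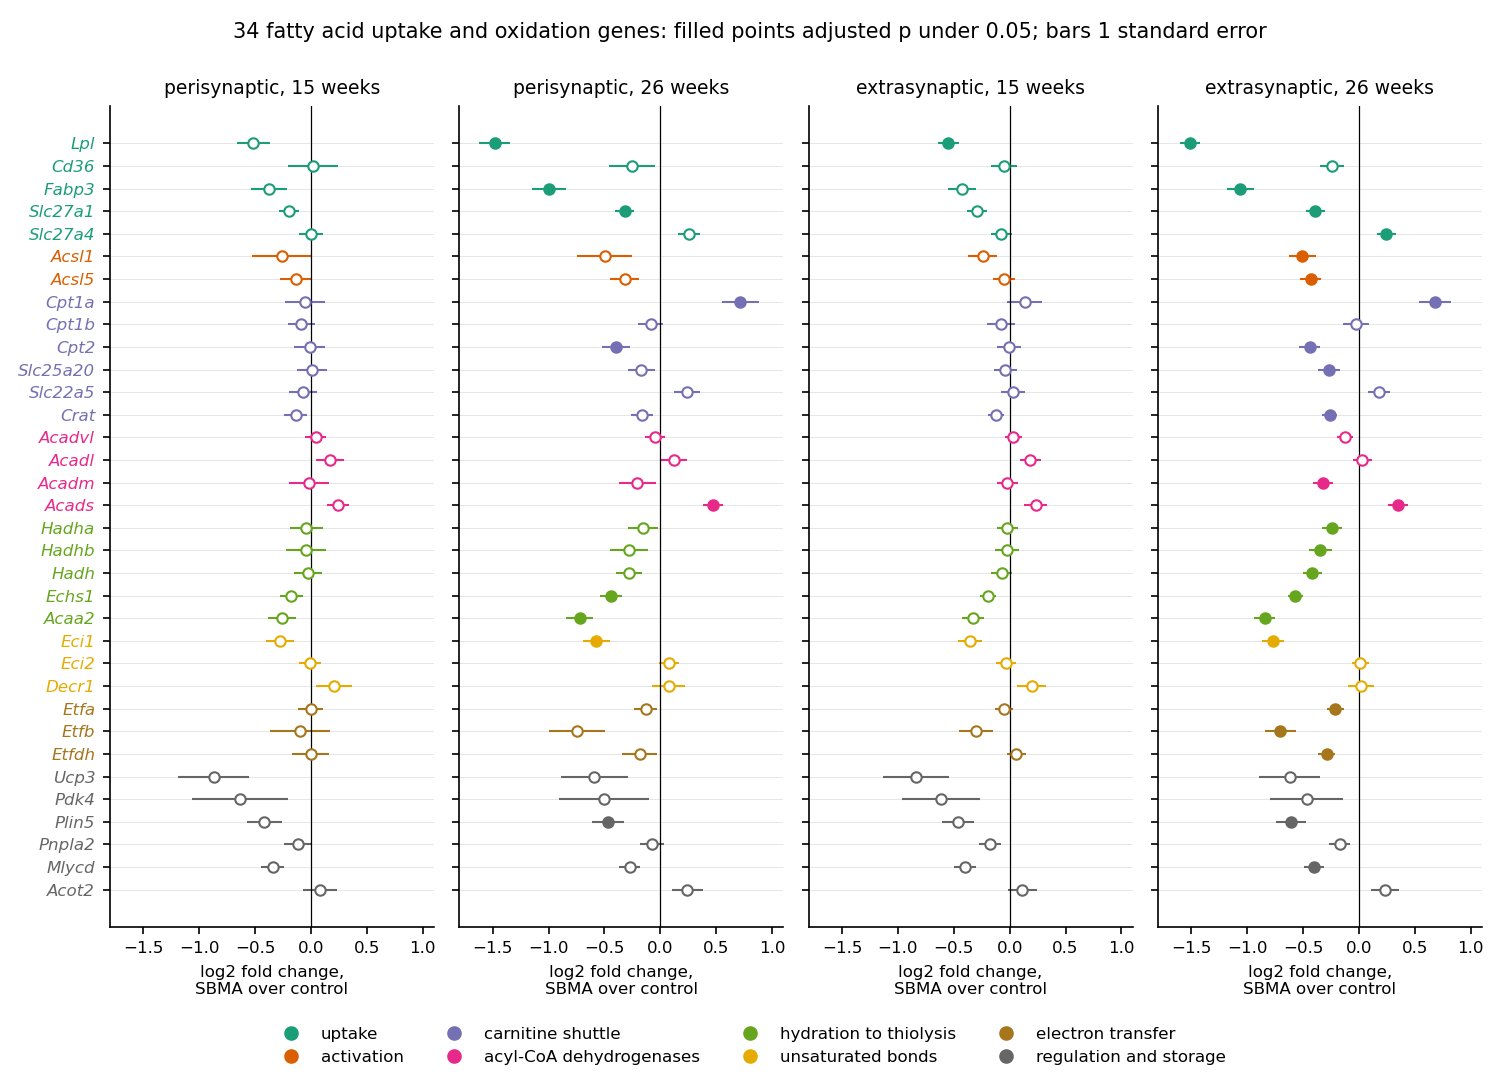
Log2 fold change of each of the 34 genes, SBMA over control (x axis), with 1 standard error, in the 4 combinations of region and age; colours mark the steps and filled points an adjusted p under 0.05. Filled points number 0 and 10 in perisynaptic and 1 and 23 in extrasynaptic muscle at 15 and 26 weeks, with Lpl leftmost at 26 weeks and Cpt1a and Acads to the right of 0.

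At 26 weeks the widest differences, those of Lpl and Fabp3, were in uptake. Lpl (ENSMUSG00000015568.16, chromosome 8, 68880491 to 68907448 on GRCm38), the secreted lipase that frees fatty acids in capillaries, had 1530.2, 1391, 1805 and 1843 CPM in SBMA perisynaptic libraries at 26 weeks, against 4369, 3935, 4961 and 5196 CPM in controls. In extrasynaptic libraries of that age it had 1571, 1729, 1941 and 1836 CPM in SBMA mice and 5080.4, 4449, 4987 and 5671 CPM in controls. Every SBMA value lay below the lowest control value of its region. The log2 fold change was -1.48 ± 0.14 (adjusted p = 6.31e-06) in perisynaptic and -1.51 ± 0.09 (adjusted p = 5.15e-08) in extrasynaptic muscle, and it stayed called in both under each of the 17 alternatives run. At 15 weeks Lpl had 3124, 3487, 2881 and 3242 CPM in SBMA and 4665, 4329 and 4964 CPM in control extrasynaptic libraries, where it fell, at -0.55 ± 0.10 on the log2 scale (adjusted p = 0.00992). The groups did not overlap, but the call was lost without control animal 3 (adjusted p = 0.0587) and with the replicate block. At 15 weeks run 1 of the animal numbers held 3 SBMA and 1 control animals and run 2 held 1 SBMA and 2 control animals. That is too few for a test within a run. The perisynaptic values at 15 weeks were 3487, 3505, 2654 and 3021 CPM in SBMA and 4246, 4141 and 5158 CPM in control mice, with no overlap either and a log2 fold change of -0.52 ± 0.15 (adjusted p = 0.278), which did not pass.

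Fabp3 (ENSMUSG00000028773.8, chromosome 4, 130308595 to 130315463) had 443, 473, 453 and 457 CPM in SBMA and 939.9, 1059, 804 and 869 CPM in control perisynaptic libraries at 26 weeks, a log2 fold change of -0.998 ± 0.15 (adjusted p = 0.000441). In extrasynaptic libraries it had 382, 384, 443 and 456 CPM in SBMA and 924, 876, 789 and 883 CPM in control mice (-1.06 ± 0.12, adjusted p = 1.06e-05). The SBMA libraries lay close together, well below all controls in both regions, and the call held under each of the 17 alternatives. At 15 weeks Fabp3 had 560.0, 738, 539 and 578 CPM in SBMA and 665, 822 and 948 CPM in control extrasynaptic libraries. There SBMA animal 2 lay among the controls and the difference did not pass (-0.43 ± 0.12, adjusted p = 0.118); it was called without that animal (adjusted p = 0.0499).

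The membrane transporters did not all move one way. Slc27a1, a fatty acid transport protein of muscle, averaged 201 ± 12.9 CPM (SD, n = 4) in SBMA and 264 ± 15.1 CPM (SD, n = 4) in control extrasynaptic muscle at 26 weeks and fell there (-0.39 ± 0.09, adjusted p = 0.00277) and in perisynaptic muscle (-0.32 ± 0.08, adjusted p = 0.0201), where the call was lost without SBMA animal 1 (0.0661) or control animal 3 (0.0514). Slc27a4, a related transport protein with acyl-CoA synthetase activity, averaged 29.1 ± 1.26 CPM (SD, n = 4) in SBMA and 24.6 ± 2.53 CPM (SD, n = 4) in control extrasynaptic muscle and rose by 0.24 ± 0.09 on the log2 scale (adjusted p = 0.0414). The adjusted p of that rise was between 0.0168 and 0.13 with 1 animal left out, and it was above 0.05 without SBMA animal 1, 2 or 3 or control animal 1, 3 or 4. Cd36, the main fatty acid translocase of muscle, did not pass in any of the comparisons between genotypes, with -0.25 ± 0.21 (adjusted p = 0.46) in perisynaptic and -0.24 ± 0.11 (adjusted p = 0.104) in extrasynaptic muscle at 26 weeks. Its control animal 2 had 402 CPM in the perisynaptic library, below the other controls at 742 to 863 CPM, and without that animal Cd36 was called lower in both regions, at -0.45 (adjusted p = 0.0495) and -0.33 (adjusted p = 0.0154).

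**Figure D2:**
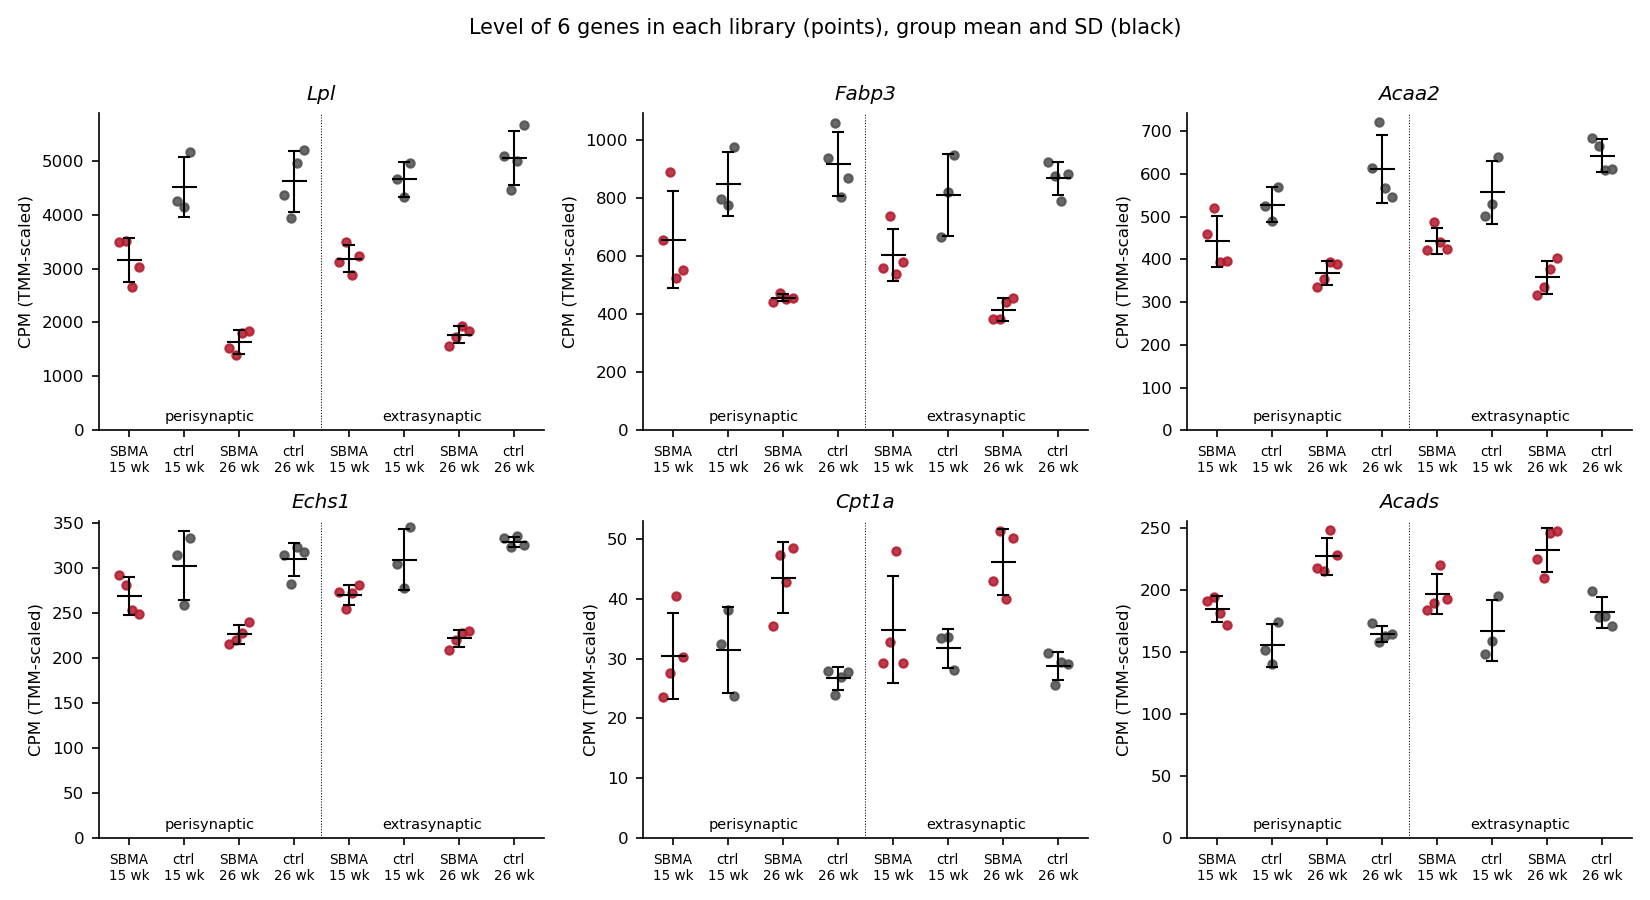
TMM-scaled CPM (y axis, from 0) of Lpl, Fabp3, Acaa2, Echs1, Cpt1a and Acads in each library (points) with the group mean and SD in black; SBMA is left of control at each age. At 26 weeks the 4 SBMA libraries of each region lie below all controls for Lpl, Fabp3, Acaa2 and Echs1 and above all controls for Cpt1a and Acads.

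Both activation genes were lower in extrasynaptic muscle at 26 weeks. Acsl1, the main long-chain acyl-CoA synthetase of muscle, averaged 710.3 ± 73.2 CPM (SD, n = 4) in SBMA and 1009 ± 192 CPM (SD, n = 4) in control mice, a log2 fold change of -0.51 ± 0.12 (adjusted p = 0.00539). In perisynaptic muscle it stood at -0.50 ± 0.25 (adjusted p = 0.2) and did not pass; control animal 2 had 373 CPM there against 946 to 1050 CPM in the other controls, and without that animal Acsl1 was called at -0.75 (adjusted p = 0.00291). Acsl5, another long-chain synthetase, had 13.6, 14.7, 13.3 and 16.1 CPM in SBMA and 17.1, 22.3, 20.2 and 18.3 CPM in control extrasynaptic libraries at 26 weeks, with no overlap and a log2 fold change of -0.43 ± 0.09 (adjusted p = 0.00247). It was not called in perisynaptic muscle (-0.32 ± 0.13, adjusted p = 0.125), nor in either region at 15 weeks.

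In the carnitine shuttle, 1 of the forms of the entry enzyme rose at 26 weeks. Cpt1a (ENSMUSG00000024900.4, chromosome 19, 3322334 to 3385733) had 35.5, 47.3, 42.7 and 48.5 CPM in SBMA and 28, 24, 27 and 27.8 CPM in control perisynaptic libraries at 26 weeks, and 42.9, 51.2, 39.9 and 50.1 CPM in SBMA and 31, 25.5, 29.4 and 29 CPM in control extrasynaptic libraries. All SBMA libraries lay above all controls. Cpt1a rose by 0.71 ± 0.16 (adjusted p = 0.00859) in perisynaptic and by 0.68 ± 0.14 (adjusted p = 0.002) in extrasynaptic muscle. The call was lost within either run of the animal numbers in perisynaptic muscle (adjusted p up to 0.135). In extrasynaptic muscle it was lost within run 2 (0.0729). Each run held 2 SBMA and 2 control animals at that age. At 15 weeks Cpt1a had 29.3, 32.8, 47.9 and 29.2 CPM in SBMA and 33.4, 33.6 and 28 CPM in control extrasynaptic libraries, and 23.6, 27.6, 40.5 and 30.2 CPM in SBMA and 32.4, 38.1 and 23.8 CPM in control perisynaptic libraries. These overlapped, and the differences did not pass.

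Cpt1b had 29.5, 29.3, 30.3 and 31.7 CPM in SBMA and 29.8, 28.1, 31.3 and 39.7 CPM in control perisynaptic libraries at 26 weeks, and 36, 38.6, 31.3 and 35.2 CPM in SBMA and 40.6, 31.1, 34.2 and 37.6 CPM in control extrasynaptic libraries. The groups overlapped, with log2 fold changes of -0.09 ± 0.11 and -0.03 ± 0.12 (adjusted p = 0.889). At 26 weeks there were 120 to 161 Cpt1a counts per 100 Cpt1b counts in SBMA and 69.97 to 93.8 in control perisynaptic libraries, and 119.3 to 142 in SBMA and 76.3 to 85.8 in control extrasynaptic libraries. The log2 ratio was higher in SBMA by 0.78 in perisynaptic and 0.70 in extrasynaptic muscle. The exact two-sided permutation p was 0.0286 in each, the smallest that 4 against 4 animals allow, and 0.0572 after adjustment over the 4 comparisons made, which did not pass 0.05. At 15 weeks the difference was 0.02 in perisynaptic (exact p = 0.943) and 0.19 in extrasynaptic muscle (exact p = 0.486). A ratio within a library does not depend on the scaling.

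**Figure D3:**
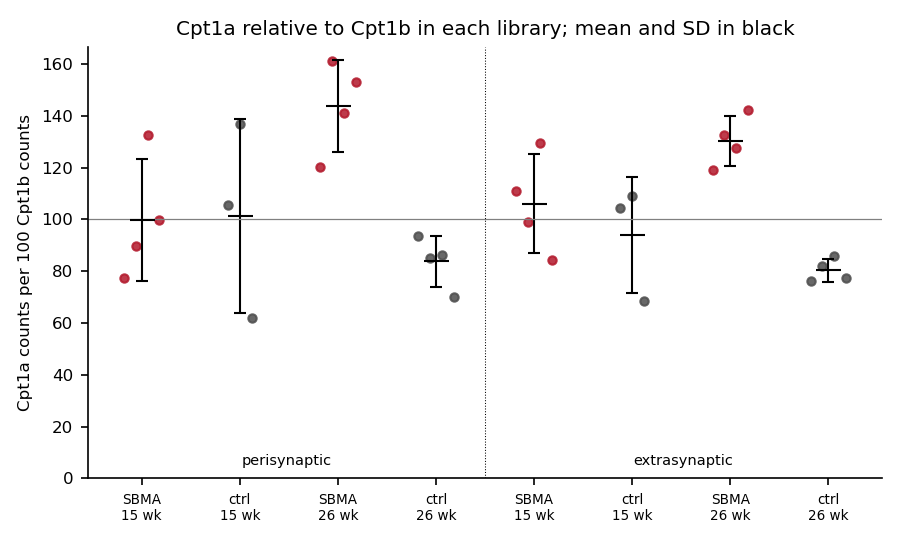
Cpt1a counts per 100 Cpt1b counts (y axis, from 0) in each library, with the group mean and SD in black and SBMA left of control. Counts were not divided by exon length, so 100 does not mark equal levels. At 26 weeks the SBMA libraries lie at 119.3 to 161 and the controls at 69.97 to 93.8, while the groups overlap at 15 weeks.

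Of the other shuttle genes, 3 fell in extrasynaptic muscle at 26 weeks. Cpt2, which returns the chain to coenzyme A in the matrix, averaged 148 ± 18 CPM (SD, n = 4) in SBMA and 201 ± 12.6 CPM (SD, n = 4) in control extrasynaptic muscle at 26 weeks and fell by 0.44 ± 0.10 (adjusted p = 0.00278). In perisynaptic muscle it fell by 0.40 ± 0.13 (adjusted p = 0.0492), a call that was lost without SBMA animal 1, 2 or 4 or control animal 1, 3 or 4 (adjusted p between 0.0378 and 0.131 with 1 animal left out). Slc25a20, the carnitine-acylcarnitine carrier of the inner membrane, and Crat, carnitine acetyltransferase, fell in extrasynaptic muscle at -0.27 ± 0.10 and -0.26 ± 0.07 (adjusted p = 0.0428 and 0.00654). The adjusted p of Slc25a20 was above 0.05, at up to 0.131, without SBMA animal 1, 2 or 3 or control animal 1, 3 or 4. Slc22a5, the carnitine importer of the plasma membrane, was not called in either region under TMM scaling, at 0.24 ± 0.12 and 0.18 ± 0.10. With total counts edgeR called none of Cpt2, Slc25a20 and Crat in extrasynaptic muscle, at -0.23, -0.05 and -0.05 (adjusted p = 0.0691, 0.697 and 0.595). It then called Slc22a5 higher, at 0.40 (adjusted p = 0.00519) in extrasynaptic and 0.50 (adjusted p = 0.00215) in perisynaptic muscle.

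Many genes of this pathway carry binding sites for nuclear receptors such as PPAR alpha and the estrogen-related receptors, which read the half-site AGGTCA. RefSeq promoter windows on GRCm38.p6, from 250 bases before to 50 after the start of transcription, were at hand for 29 of the 34 members (33 windows, all 300 bases long). The half-site AGGTCA, on either strand, was found in 8 of these windows, from 7 members, and in 16.3% of the 32851 windows of all genes. The direct repeat of the half-site with a spacer of 1 base was in none of the member windows and in 0.0396% of all, and the extended half-site TCAAGGTCA in none and in 0.423%; both contain the half-site. The windows below show the half-site in capitals (AGGTCA or, where it lies on the other strand, TGACCT) for Cpt1a, which rose, and for Echs1 and Plin5, which fell, in both regions at 26 weeks. They run 5′ to 3′ on the strand of the gene, chr19:3323051-3323350 (plus strand), chr7:140116372-140116671 (minus strand) and chr17:56117499-56117798 (minus strand).
Cpt1a: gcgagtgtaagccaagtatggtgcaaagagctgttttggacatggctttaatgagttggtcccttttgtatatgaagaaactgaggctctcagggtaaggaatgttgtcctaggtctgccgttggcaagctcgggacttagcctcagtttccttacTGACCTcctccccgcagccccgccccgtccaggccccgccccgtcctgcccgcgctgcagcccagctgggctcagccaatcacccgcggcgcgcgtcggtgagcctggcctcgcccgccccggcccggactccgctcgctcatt
Echs1: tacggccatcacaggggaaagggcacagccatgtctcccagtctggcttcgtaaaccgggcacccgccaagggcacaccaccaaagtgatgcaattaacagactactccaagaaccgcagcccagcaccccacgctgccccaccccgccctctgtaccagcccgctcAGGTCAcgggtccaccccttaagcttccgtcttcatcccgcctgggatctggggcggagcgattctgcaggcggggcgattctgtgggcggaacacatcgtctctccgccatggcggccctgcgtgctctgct
Plin5: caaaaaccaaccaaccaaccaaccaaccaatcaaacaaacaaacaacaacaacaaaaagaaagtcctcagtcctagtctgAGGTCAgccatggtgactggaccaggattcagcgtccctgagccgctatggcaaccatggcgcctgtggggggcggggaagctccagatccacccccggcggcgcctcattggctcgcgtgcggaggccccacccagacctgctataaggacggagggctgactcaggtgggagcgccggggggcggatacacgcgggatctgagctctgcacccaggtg
The match began 94 bases before the start of transcription in Cpt1a, 83 in Echs1 and 170 in Plin5. Another Plin5 window, chr17:56117249-56117548 (minus strand), is not printed. It holds a half-site of its own, for which the same distance is -13, past the start of transcription. A match of these letters is a description of the window and not a binding site.

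The acyl-CoA dehydrogenases, which make the first double bond and are specific for chain length, split under TMM scaling. Acads, for short chains (ENSMUSG00000029545.13, chromosome 5, 115110299 to 115119346), had 218, 216, 248 and 229 CPM in SBMA and 174, 158, 163 and 165 CPM in control perisynaptic libraries at 26 weeks, and 225, 210.4, 246 and 248 CPM in SBMA and 199.9, 178, 179 and 172 CPM in control extrasynaptic libraries. SBMA lay above control without overlap, and Acads rose by 0.47 ± 0.09 (adjusted p = 0.00268) and 0.35 ± 0.09 (adjusted p = 0.00859). Within run 1, of 2 SBMA and 2 control animals, Acads lost the call in both regions (adjusted p = 0.0815 and 0.212). At 15 weeks it had 192, 194, 182 and 172 CPM in SBMA and 152, 141 and 174 CPM in control perisynaptic libraries, which overlapped (0.25 ± 0.10, adjusted p = 0.584). Acadm, for medium chains, averaged 668 ± 45.1 CPM (SD, n = 4) in SBMA and 836 ± 98 CPM (SD, n = 4) in control extrasynaptic muscle at 26 weeks and fell (-0.32 ± 0.09, adjusted p = 0.0098). In perisynaptic muscle Acadm stood at -0.21 ± 0.17 (adjusted p = 0.442), and at -0.37 (adjusted p = 0.0333) without control animal 2. With total counts edgeR called Acadm in neither region, at -0.10 (adjusted p = 0.275) in extrasynaptic and 0.05 (adjusted p = 0.808) in perisynaptic muscle. Acadl and Acadvl were not called in any comparison between genotypes under TMM scaling. At 26 weeks Acadl stood at 0.12 ± 0.12 in perisynaptic and 0.03 ± 0.09 in extrasynaptic muscle and Acadvl at -0.05 ± 0.09 and -0.13 ± 0.07. With total counts edgeR called Acadl higher at that age, at 0.38 (adjusted p = 0.00669) in perisynaptic and 0.25 (adjusted p = 0.0182) in extrasynaptic muscle.

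All 5 genes of hydration to thiolysis fell in extrasynaptic muscle at 26 weeks, with a median log2 fold change of -0.42, and Echs1 and Acaa2 fell in perisynaptic muscle too. Under total-count scaling Echs1 and Acaa2 remained called in extrasynaptic muscle and Hadha, Hadhb and Hadh did not, while in perisynaptic muscle Acaa2 remained called and Echs1 did not (-0.18, adjusted p = 0.132). Acaa2 (ENSMUSG00000036880.9, chromosome 18, 74779197 to 74806208), the thiolase that cuts off acetyl-CoA, had 317, 335, 377 and 403 CPM in SBMA and 685, 665, 609.8 and 612 CPM in control extrasynaptic libraries, a log2 fold change of -0.84 ± 0.09 (adjusted p = 9.97e-06). Its perisynaptic values were 336, 354, 395 and 389 CPM in SBMA and 613, 723, 567 and 545 CPM in control mice (-0.72 ± 0.12, adjusted p = 0.000903). No SBMA library reached the lowest control in either region. At 15 weeks Acaa2 had 422, 487, 441 and 425 CPM in SBMA and 501, 531 and 639 CPM in control extrasynaptic libraries, which did not overlap but did not pass (-0.33 ± 0.10, adjusted p = 0.131).

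Echs1, short-chain enoyl-CoA hydratase (ENSMUSG00000025465.13, chromosome 7, 140105710 to 140116476), had 209, 221, 228 and 231 CPM in SBMA and 333, 324, 335 and 325 CPM in control extrasynaptic libraries at 26 weeks. The control values lay close together and above all SBMA values, for a log2 fold change of -0.57 ± 0.07 (adjusted p = 2.1e-05). In perisynaptic muscle the log2 fold change was -0.44 ± 0.10 (adjusted p = 0.00754). Hadh, the short-chain 3-hydroxyacyl-CoA dehydrogenase, had 353, 374, 417 and 444 CPM in SBMA and 555, 492, 524 and 548 CPM in control extrasynaptic libraries, without overlap (-0.42 ± 0.09, adjusted p = 0.00178). Hadha and Hadhb, the subunits of the mitochondrial trifunctional protein, lie head to head with starts 86 bases apart. They fell in extrasynaptic muscle, with log2 fold changes of -0.24 ± 0.09 (adjusted p = 0.0447) and -0.35 ± 0.10 (adjusted p = 0.0156). The call of Hadha was lost without SBMA animal 1, 2 or 3 or control animal 1, 3 or 4 (adjusted p up to 0.131), and that of Hadhb without SBMA animal 1 (0.0531). In perisynaptic muscle neither passed, at -0.15 ± 0.14 and -0.28 ± 0.17; control animal 2 had 907 CPM for Hadha and 91.7 CPM for Hadhb, below the other controls, and without that animal they stood at -0.26 (adjusted p = 0.138) and -0.42 (adjusted p = 0.0526). Hadh stood at -0.28 ± 0.12 (adjusted p = 0.126) in perisynaptic muscle and was called without control animal 2, at -0.35 (adjusted p = 0.0321).

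Of the 3 genes that handle double bonds already present in the fatty acid, Eci1 fell and the other two did not pass. Eci1, an enoyl-CoA isomerase (ENSMUSG00000024132.6, chromosome 17, 24426641 to 24439348), had 127, 138, 148 and 157 CPM in SBMA and 261, 268, 213 and 226 CPM in control extrasynaptic libraries at 26 weeks (-0.77 ± 0.10, adjusted p = 4.85e-05). In perisynaptic libraries it had 157, 163, 149.8 and 155 CPM in SBMA and 227, 284, 213 and 212 CPM in control mice (-0.57 ± 0.12, adjusted p = 0.00476). The groups did not overlap in either region. At 15 weeks Eci1 had 169, 196, 172 and 179.6 CPM in SBMA and 204, 217 and 268 CPM in control extrasynaptic libraries and did not pass (-0.36 ± 0.11, adjusted p = 0.129). Eci2, another isomerase, and Decr1, a dienoyl-CoA reductase, stood at 0.01 ± 0.08 and 0.02 ± 0.12 in extrasynaptic muscle at 26 weeks.

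All 3 electron transfer genes fell in extrasynaptic muscle at 26 weeks and edgeR called none in perisynaptic muscle. Etfb, the beta subunit of the electron transfer flavoprotein, averaged 46.4 ± 5.57 CPM (SD, n = 4) in SBMA and 75.8 ± 15.6 CPM (SD, n = 4) in control extrasynaptic muscle (-0.71 ± 0.14, adjusted p = 0.00133). In perisynaptic muscle it had 55.7, 64, 52.8 and 49 CPM in SBMA and 74.9, 172, 65.7 and 61.8 CPM in control mice (-0.75 ± 0.25, adjusted p = 0.0595). DESeq2 called it lower there (-0.74, adjusted p = 0.0265), and in edgeR without the high value of control animal 2 it stood at -0.27 (adjusted p = 0.0926). The annotated genes Gm45233 and Mir7051 share 678 of its 1164 exonic bases on the same strand, so its counts are uncertain. Etfa, the alpha subunit, fell by 0.21 ± 0.08 (adjusted p = 0.0408) in extrasynaptic muscle, but stood at 0.00 with total-count scaling and lost its call without SBMA animal 1, 2 or 3 or control animal 1 or 4 (adjusted p up to 0.129). Etfdh, the dehydrogenase that passes the electrons to ubiquinone, had 334, 353, 386 and 392 CPM in SBMA and 468, 382, 448 and 494 CPM in control extrasynaptic libraries. It fell by 0.29 ± 0.08 (adjusted p = 0.0106), although SBMA animals 3 and 4 lay above control animal 2. Etfdh lost that call with total counts (-0.07, adjusted p = 0.431 in edgeR) and with only the 2 groups compared.

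Among regulators and storage genes Plin5 and Mlycd fell. Plin5, the lipid droplet protein that tethers droplets to mitochondria, had 83.7, 95.3, 87.3 and 102 CPM in SBMA and 142, 144, 133 and 144 CPM in control extrasynaptic libraries at 26 weeks (-0.61 ± 0.14, adjusted p = 0.00328). In perisynaptic libraries it had 84.5, 94.1, 96.9 and 99.1 CPM in SBMA and 126, 138, 127 and 129.9 CPM in control mice (-0.47 ± 0.14, adjusted p = 0.0414), also without overlap, but that call was lost whichever of the 8 animals was left out (adjusted p between 0.0567 and 0.104). Mlycd, malonyl-CoA decarboxylase, which removes the inhibitor of carnitine palmitoyltransferase 1, had 122, 138, 124 and 129 CPM in SBMA and 188, 163, 161 and 168 CPM in control extrasynaptic libraries (-0.40 ± 0.09, adjusted p = 0.00346). With total counts Mlycd lost that call (-0.19, adjusted p = 0.116). In perisynaptic muscle at 26 weeks edgeR called Mlycd only without control animal 2 or in other alternatives not given here, at -0.29 (adjusted p = 0.0455) without that animal. DESeq2 called Mlycd lower there (-0.27, adjusted p = 0.019). At 15 weeks its extrasynaptic values were 127, 154, 145 and 142 CPM in SBMA and 158, 189 and 215 CPM in control mice (-0.40 ± 0.10, adjusted p = 0.0592), without overlap, and it was called there without control animal 1 (adjusted p = 0.0181). Its perisynaptic values at 15 weeks were 142, 165, 133 and 137 CPM in SBMA and 171, 176 and 200.2 CPM in control mice (-0.34 ± 0.10, adjusted p = 0.318). Plin5 at 15 weeks had 122, 151, 125 and 102 CPM in SBMA and 199.6, 120.1 and 179.8 CPM in control perisynaptic libraries, which overlapped (-0.42 ± 0.15, adjusted p = 0.519). Pnpla2, the first lipase of droplet triglyceride, and Acot2, a matrix thioesterase with the near-identical neighbour Acot1, were not called by edgeR in any comparison under TMM scaling. They stood at -0.17 ± 0.09 and 0.23 ± 0.12 in extrasynaptic muscle at 26 weeks, where all SBMA libraries lay above all controls for Acot2. With total counts edgeR called Acot2 higher, at 0.45 (adjusted p = 0.00766) in extrasynaptic and 0.50 (adjusted p = 0.0116) in perisynaptic muscle.

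Pdk4, whose kinase turns off pyruvate oxidation, and Ucp3, the uncoupling protein of muscle mitochondria, varied widely between animals of a group. Pdk4 had 723, 821, 784 and 1153 CPM in SBMA and 1166, 533, 946 and 2174 CPM in control extrasynaptic libraries at 26 weeks, and 486, 616, 711 and 1104 CPM in SBMA and 1029.7, 309, 888 and 1948 CPM in control perisynaptic libraries. Controls spanned both ends: animal 2 was lowest and animal 4 highest in both regions, 4.08-fold apart in extrasynaptic and 6.3-fold in perisynaptic muscle. The log2 fold changes were -0.47 ± 0.33 (adjusted p = 0.288) in extrasynaptic and -0.51 ± 0.40 (adjusted p = 0.439) in perisynaptic muscle, and without control animal 2 they were -0.72 (adjusted p = 0.0708) and -0.81 (adjusted p = 0.0854). At 15 weeks Pdk4 had 561, 1374, 880.5 and 849 CPM in SBMA and 1342, 1387 and 1473 CPM in control extrasynaptic libraries and 543, 1279, 810.5 and 786 CPM in SBMA and 1209, 1253 and 1497 CPM in control perisynaptic libraries, where SBMA animal 2 lay within the control range and the other SBMA animals below it. Ucp3 had 56.5, 91.2, 83.7 and 86.4 CPM in SBMA and 124, 116 and 195 CPM in control perisynaptic libraries at 15 weeks, which did not overlap (-0.87 ± 0.32, adjusted p = 0.518). At 26 weeks Ucp3 had 53, 69.3, 72.1 and 128 CPM in SBMA and 107, 68.1, 127 and 186 CPM in control perisynaptic libraries, which overlapped (-0.59 ± 0.30, adjusted p = 0.208). In extrasynaptic libraries of that age it had 63.9, 82.9, 87 and 131 CPM in SBMA and 135, 77.9, 137 and 210.2 CPM in control mice, which overlapped (-0.62 ± 0.28, adjusted p = 0.0963). Control animals 4 and 2 were again highest and lowest. Without control animal 2, Ucp3 was called lower in extrasynaptic muscle, at -0.82 (adjusted p = 0.0252), and stood at -0.79 (adjusted p = 0.0628) in perisynaptic muscle.

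**Figure D4:**
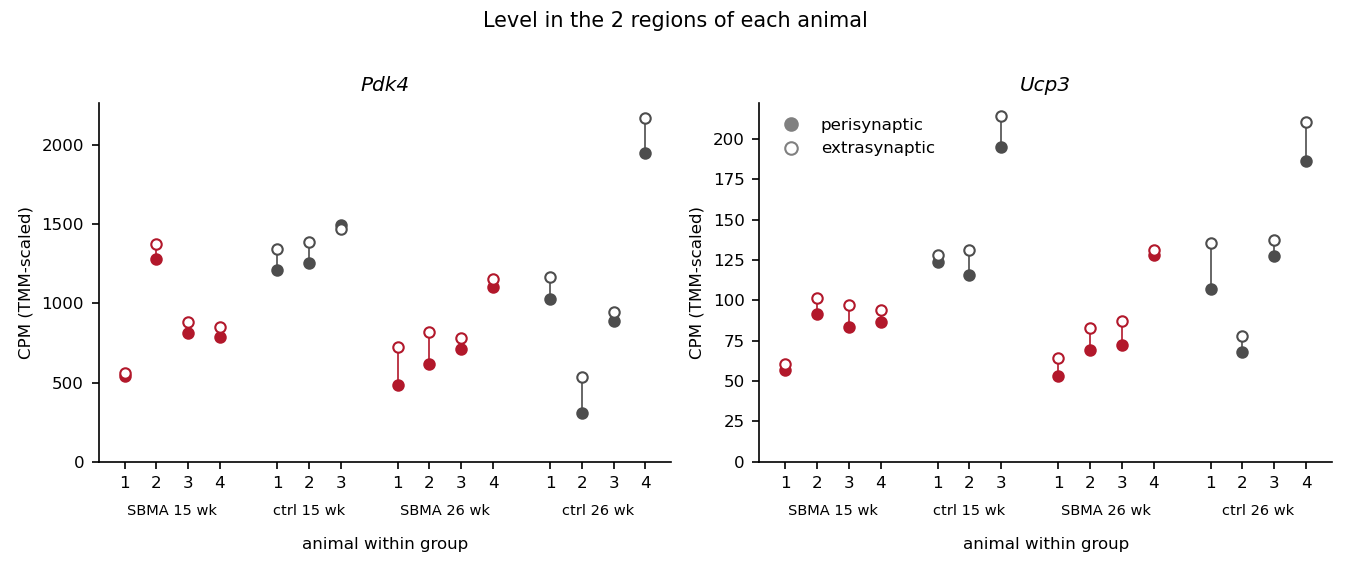
TMM-scaled CPM (y axis, from 0) of Pdk4 and Ucp3 in the perisynaptic (filled) and extrasynaptic (open) library of each animal, joined by a line; red is SBMA and grey control. The points of an animal lie near each other, and among the 26-week controls animal 2 is lowest and animal 4 highest in both genes and regions.

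Members changed with age in SBMA muscle and none was called in control muscle, while in edgeR the test of that difference passed for Lpl alone, in extrasynaptic muscle. From 15 to 26 weeks, 7 members fell and 1 rose in SBMA extrasynaptic muscle (12.1% of genes called), with 5.62% called as lower and 6.52% as higher, and Lpl alone fell in SBMA perisynaptic muscle (3.95% called). Lpl had log2 fold changes of -0.85 ± 0.09 (adjusted p = 5.49e-05) in extrasynaptic and -0.93 ± 0.14 (adjusted p = 0.0012) in perisynaptic muscle. Fabp3 fell by 0.54 ± 0.12 (adjusted p = 0.00744), Acsl5 fell by 0.42 ± 0.09 (adjusted p = 0.00806) and Echs1 fell by 0.28 ± 0.07 (adjusted p = 0.0127) in extrasynaptic muscle. Acsl5 had 13.6, 14.7, 13.3 and 16.1 CPM at 26 weeks and 20.7, 18.9, 18.9 and 18.8 CPM at 15 weeks in these SBMA libraries, which did not overlap. Acsl1 (-0.39 ± 0.12), Acaa2 (-0.31 ± 0.09), Eci1 (-0.33 ± 0.10) and Slc27a4 (0.33 ± 0.09) were called as well. Acsl1, Acaa2 and Eci1 lost the call without SBMA animal 1, 2 or 3 at 26 weeks or animal 1, 2, 3 or 4 at 15 weeks, with an adjusted p up to 0.137, and Slc27a4 without animal 2 or 3 at 26 weeks or animal 1 or 4 at 15 weeks, up to 0.0671. In control muscle edgeR called 0 genes with age in either region and DESeq2 40 perisynaptic and 51 extrasynaptic genes. Of the members, 2 perisynaptic and 0 extrasynaptic had an unadjusted p under 0.05 there.

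The test of genotype by age asks whether the difference between SBMA and control muscle is itself different at 26 weeks. It called Lpl in extrasynaptic muscle (1.73% of genes called), with a difference of log2 fold changes of -0.96 ± 0.13 (adjusted p = 0.00274), a call that was lost with the replicate block (adjusted p = 0.0513). DESeq2 called 4 members there. The edgeR test called no member in perisynaptic muscle (0.375% called; 4 members with an unadjusted p under 0.05, and 1 called by DESeq2), where Lpl had -0.96 ± 0.20 (adjusted p = 0.0581). Next in order of p in extrasynaptic muscle were Acaa2 at -0.51 ± 0.14 (adjusted p = 0.0703), Echs1 at -0.37 ± 0.10 (adjusted p = 0.0722) and Fabp3 at -0.63 ± 0.17 (adjusted p = 0.0771). Acaa2 was called without SBMA animal 4 at 26 weeks (adjusted p = 0.0413) or control animal 3 at 15 weeks (0.0299), and Echs1 without control animal 3 at 15 weeks (0.0234). The 4 comparisons of genotype and age within a region share libraries.

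No member was called between perisynaptic and extrasynaptic muscle in SBMA or control mice at either age, where 0.948% and 2.07% of 16138 genes were called in SBMA at 15 and 26 weeks and 1.16% and 1.18% in control mice. At an unadjusted p under 0.05 the members numbered 2 and 6 in SBMA and 0 and 14 in control mice, and DESeq2 called 1 member in SBMA mice at 26 weeks and none in the other 3 groups. The smallest p belonged to Ucp3, at -0.21 ± 0.06 (adjusted p = 0.0638) in SBMA mice at 26 weeks, which passed without SBMA animal 4 (adjusted p = 0.02). Etfdh and Pdk4 followed, at -0.24 ± 0.07 and -0.30 ± 0.10 in control mice of that age. For Etfdh the library of control animal 2 had 258 CPM in the perisynaptic piece and 382 CPM in the extrasynaptic piece. The test of whether the difference between regions depends on genotype called no member: 0 members and 0 or 2 genes of 16138 were called at 15 and 26 weeks (0% and 0.0124%), 0 members had an unadjusted p under 0.05 at either age, and DESeq2 called 0. The smallest p values were those of Eci1 (0.19 ± 0.10), Hadh (0.13 ± 0.09) and Mlycd (0.12 ± 0.08) at 26 weeks.

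Together the 34 genes took 1.4% ± 0.119 (SD, n = 4) of all counts in SBMA and 1.78% ± 0.111 (SD, n = 4) in control extrasynaptic libraries of 26-week animals. In perisynaptic libraries of that age they took 1.38% ± 0.0953 (SD, n = 4) in SBMA and 1.64% ± 0.124 (SD, n = 4) in control perisynaptic libraries. At 26 weeks uptake genes took 0.341% of all counts in SBMA and 0.66% in control extrasynaptic libraries, and 0.331% and 0.614% in perisynaptic libraries. In perisynaptic muscle the mean share was also lower for activation, hydration to thiolysis, and regulation and storage, and higher for the other steps. In extrasynaptic muscle it was higher for the acyl-CoA dehydrogenases and lower for every other step. The make-up of the members' own counts shifted. Lpl accounted for 13.7% ± 0.646 (SD, n = 4) of the members' counts in SBMA and 26.5% ± 0.379 (SD, n = 4) in control extrasynaptic libraries, and 13.5% ± 0.809 (SD, n = 4) in SBMA and 26.6% ± 1.21 (SD, n = 4) in control perisynaptic libraries. At 15 weeks its share was 20.5% ± 1.25 (SD, n = 4) in SBMA and 25.5% ± 1.12 (SD, n = 3) in control extrasynaptic libraries. The 4 acyl-CoA dehydrogenase genes held 22.1% ± 0.398 (SD, n = 4) in SBMA and 16% ± 0.679 (SD, n = 4) in control extrasynaptic libraries at 26 weeks. The shares did not overlap between genotypes for Lpl or for the dehydrogenases in either region at 26 weeks. Shares add to 100, so a lower share of Lpl raises the others. Of all counts, the dehydrogenases took 0.300% to 0.324% in SBMA and 0.241% to 0.2875% in control perisynaptic libraries at 26 weeks. In extrasynaptic libraries they took 0.290% to 0.339% and 0.275% to 0.297%, which overlapped. Their summed TMM-scaled levels overlapped between genotypes in both regions.

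**Figure D5:**
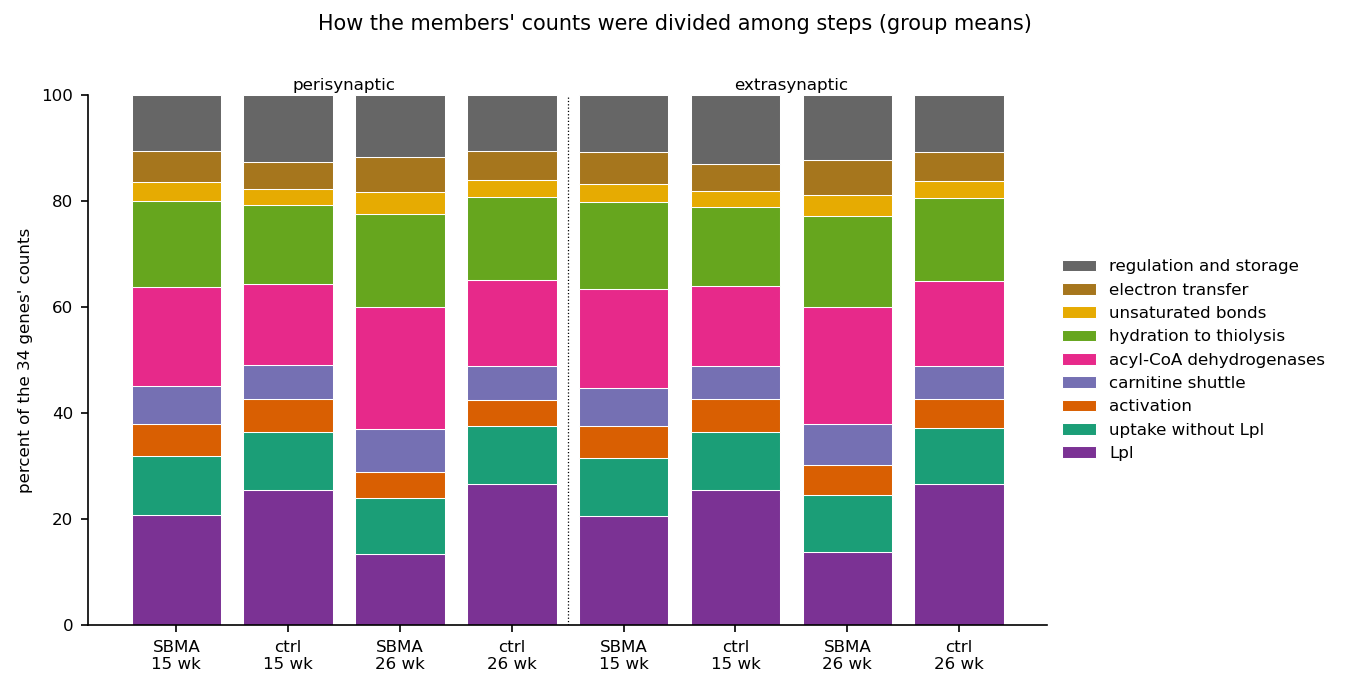
Percent of the counts of the 34 genes (y axis) taken by Lpl and by each step, as group means, with SBMA left of control. Lpl takes 13.5% and 13.7% of the counts in SBMA libraries at 26 weeks, against 26.6% and 26.5% in control libraries.

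Genes around the pathway were counted from lists, to be read against the 32.2% of all genes called in extrasynaptic and 14% in perisynaptic muscle at 26 weeks. Of 18 regulators, 2 rose and 3 fell in extrasynaptic and 1 rose and 3 fell in perisynaptic muscle at 26 weeks. The coactivator gene Ppargc1b fell, at -0.78 (adjusted p = 0.00904) in extrasynaptic and -1.08 (adjusted p = 0.000676) in perisynaptic muscle and the transcription factor gene Foxo1 at -0.97 (adjusted p = 0.0273) and -1.01 (adjusted p = 0.0376), while Prkaa1, a catalytic subunit of AMP-activated kinase, rose by 0.79 (adjusted p = 0.000468) and 0.67 (adjusted p = 0.0153). Ppara, the nuclear receptor that drives this programme in liver and muscle, stood at -0.86 (adjusted p = 0.0539) and -1.21 (adjusted p = 0.127) and did not pass, nor did the coactivator gene Ppargc1a. Of 23 lipid handling genes tested, 2 rose and 6 fell in extrasynaptic and 2 rose and 4 fell in perisynaptic muscle. The risers were the acyl-CoA synthetase genes Acsl3 (1.25 and 1.15) and Acsl4 (0.93 and 0.86). Gpihbp1, which anchors lipoprotein lipase in capillaries, stood at -0.45 (adjusted p = 0.0689) and -0.65 (adjusted p = 0.0993). Of 33 further oxidation genes tested, 8 rose and 4 fell in extrasynaptic and 4 rose and 1 fell in perisynaptic muscle. Of 21 citrate cycle genes, 15 fell and 1 rose in extrasynaptic and 3 fell in perisynaptic muscle. None of these lists had a called gene at 15 weeks.

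Markers of fibre types and of other cells moved with genotype, and their part in the results was not tested. At 15 weeks 7 of 11 fast-fibre genes fell in extrasynaptic and 0 in perisynaptic muscle, with sums of 56928 to 68913 CPM in SBMA and 94874 to 102459 CPM in control extrasynaptic libraries, and 58598 to 69170 CPM in SBMA and 88465 to 98887 CPM in control perisynaptic libraries; 1 endothelial marker fell in extrasynaptic muscle. At 26 weeks all 11 fast-fibre genes fell in both regions, with a summed level of 39038 to 43606 CPM in SBMA and 89438 to 95275 CPM in control extrasynaptic libraries. Over all genes 16.1% were called lower in extrasynaptic and 5.97% in perisynaptic muscle at 26 weeks, and 1.22% were called in extrasynaptic and 0.21% in perisynaptic muscle at 15 weeks. Of 9 slow-fibre genes, 5 fell and 1 rose in either region. Of 8 endothelial markers, 4 fell in extrasynaptic and 2 in perisynaptic muscle, with sums of 423 to 485 CPM in SBMA and 464 to 713 CPM in control extrasynaptic libraries, which overlap, and 396 to 475 CPM in SBMA and 497 to 839 CPM in control perisynaptic libraries, which do not. Of 8 macrophage markers, 6 fell in extrasynaptic and 1 in perisynaptic muscle (137 to 160 CPM in SBMA and 203 to 253 CPM in control extrasynaptic libraries). Of 8 adipocyte markers, Cidea alone rose in each region, and the sums overlapped, at 59.1 to 566 CPM in SBMA and 124 to 601 CPM in control extrasynaptic libraries. Of 8 fibroadipogenic and 6 mesothelial markers, 4 of each fell in extrasynaptic and 0 in perisynaptic muscle. Of 5 smooth muscle markers, 1 rose and 1 fell in extrasynaptic and 1 rose in perisynaptic muscle. Their sum, which holds Des of skeletal fibres too, was 4574 to 5556 CPM in SBMA and 3927 to 4372 CPM in control extrasynaptic libraries, without overlap, and 4624 to 6011 CPM in SBMA and 3828 to 4779.5 CPM in control perisynaptic libraries, which overlapped. At 26 weeks no Schwann or erythroid marker was called. At 15 weeks no adipocyte marker was called, and the sums were 16.004 to 280.0 CPM in SBMA and 22.8 to 47.2 CPM in control perisynaptic libraries, and 77.8 to 287 CPM in SBMA and 165 to 714 CPM in control extrasynaptic libraries. The junction markers at 26 weeks summed to 345 to 392 CPM in SBMA and 214 to 244 CPM in control perisynaptic libraries, above the 206 to 252 CPM in SBMA and 51.5 to 97.4 CPM in control extrasynaptic libraries.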

How the data were processed

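Gene counts were deposited by the authors as one table of whole-number counts for 30 libraries, made with featureCounts on mm10, per the submitters' processing notes; RNA was extracted with a miRNeasy kit and DNase and libraries with a stranded KAPA mRNA kit, per the labels' protocols. For the aligner, annotation release and strand setting, the sources used here give nothing, so reads of genes that overlap on opposite strands may be mixed. The 34 members, the other lists and the tests were chosen with earlier results of these data known.

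Genes were named through GENCODE vM21 (33064 of 33076 IDs matched without version suffix; the 12 others hold 0.00171% of counts), which also gave exon lengths. Each region was fitted with edgeR 4.0.16 (R 4.3.3, limma 3.58.1): genes passing filterByExpr (minimum count 10, minimum total 15), TMM scaling, a mean per genotype and age over 15 libraries, glmQLFit and glmQLFTest, and Benjamini-Hochberg adjustment over all genes tested with a threshold of 0.05. All 34 members passed the filter. Regions were compared in 1 fit of all 30 libraries with a term for the animal. The deviations of the 2 libraries of an animal from their group means correlated above 0.1 in 14 of 15 animals (mean 0.336, lowest 0.09). Replicates are separate animals. Reads carry no molecular identifiers, so counts are not independent molecules. The check of the targeted gene is not reported here. The scripts were tested on simulated data. Alternatives were DESeq2 1.42.0, other scalings, no filter, a replicate block, the 2 runs of animal numbers, only the 2 groups compared, group means without the animal term, and each animal left out. Runs were set here from gaps in the animal numbers within an age. Members given library by library were the 5 of smallest p in each comparison of genotypes, the 3 of smallest p in each other family, and Cpt1a, Cpt1b and Pdk4. Tables and figures used Python 3.11.15, pandas 2.3.3, numpy 2.4.6 and matplotlib 3.10.9.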

Additional observations from a re-analysis of the deposited data

Results flagged for a closer look

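In groups of 4 libraries, 15 of 204 tested member levels had 1 library far from the other 3, where chance gives about 1 in 20, or 10.2. Of these, 9 belong to the perisynaptic library of control animal 2 at 26 weeks, which also differs from its group across all genes. It was lowest for Acsl1 (373 CPM, with the others at 946 to 1050.4 CPM), Acadl (709 CPM, with the others at 902 to 937 CPM), Acadm (473 CPM, with the others at 813 to 854 CPM) and Hadha (907 CPM, with the others at 1259.7 to 1292 CPM). It was also lowest for Hadhb (91.7 CPM, with the others at 142 to 146 CPM), Hadh (405 CPM, with the others at 500.0 to 514 CPM), Etfa (411 CPM, with the others at 472 to 483 CPM) and Etfdh (258 CPM, with the others at 411 to 435 CPM), and highest for Etfb (172 CPM, with the others at 61.8 to 74.9 CPM).

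Among SBMA extrasynaptic libraries at 15 weeks, animal 1 was low for Slc27a1 (185 CPM, with the others at 217 to 220.1 CPM) and high for Acsl5 (20.7 CPM, with the others at 18.8 to 18.9 CPM), and animal 2 was high for Cpt2 (206 CPM, with the others at 169 to 174 CPM) and Hadhb (144 CPM, with the others at 124 to 127 CPM). Control extrasynaptic animal 1 at 26 weeks was high for Cpt2 (220.0 CPM, with the others at 193 to 197 CPM), and SBMA perisynaptic animal 3 at 15 weeks for Pnpla2 (398 CPM, with the others at 350.0 to 356 CPM).

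The genotype difference of Lpl in extrasynaptic muscle differed between 26 and 15 weeks by -0.96 ± 0.13 on the log2 scale (adjusted p = 0.00274, edgeR's quasi-likelihood test).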

How the results depend on the processing

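Over 63 results for named members, 990 alternatives gave the same direction and side of the threshold in 818, a lost call in 152, a gained call in 14 and another sign in 6. Cpt1a at 15 weeks, not called in either region, changed sign in perisynaptic muscle with total counts (0.031) and with 1 animal left out (-0.22 to 0.11, positive without SBMA replicate 1 or control replicate 2), and in extrasynaptic muscle within run 2 (-0.080) and with 1 animal left out (-0.060 to 0.21, negative without SBMA replicate 3). Etfa in extrasynaptic muscle at 26 weeks stood at 0.0015 with total counts.

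Of 214 alternatives over 16 counts of members called, 174 stayed within 1.5 times. DESeq2 called 5 in extrasynaptic SBMA against control at 15 weeks, 4 with age in SBMA perisynaptic muscle, 4 for genotype by age in extrasynaptic and 1 in perisynaptic muscle, and 1 between regions in SBMA at 26 weeks. With total counts these were 5, 4 and, for genotype by age in perisynaptic muscle, 1; extrasynaptic muscle had 15 at 26 weeks and 5 with age in SBMA. With no filter, genotype by age called 1 in perisynaptic and 2 in extrasynaptic muscle, and regions 4 in SBMA and 3 in control at 26 weeks. With the run of animal numbers as a term, genotype by age called 1 in perisynaptic muscle. Within runs 1 and 2, each with 2 SBMA and 2 control animals, the counts were 6 and 3 in perisynaptic muscle at 26 weeks. In extrasynaptic muscle of that age the count was 9 within run 2. At 15 weeks run 1 held 1 control and run 2 held 1 SBMA animal, so no count within a run is given. With 1 animal left out in turn, counts ranged from 7 to 15 in perisynaptic and 18 to 25 in extrasynaptic muscle at 26 weeks, 0 to 2 in extrasynaptic muscle at 15 weeks, 1 to 3 and 4 to 11 with age in SBMA perisynaptic and extrasynaptic muscle, 0 to 1 and 1 to 4 for genotype by age in them, and 0 to 3 between regions in SBMA at 26 weeks. The causes were not tested.

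Samples with the same replicate number deviated together by over 0.1 in 3 of 4 pairs of either region at 26 weeks and in 0 of 3 at 15 weeks. At 26 weeks the mean correlation was 0.288 in perisynaptic (lowest 0.0649) and 0.128 in extrasynaptic muscle (lowest 0.00784). In both genotypes replicates 1 and 2 of that age come from run 1 of the animal numbers and replicates 3 and 4 from run 2. The numbers are not said to mark a shared litter or day, so the main fit holds no block. It therefore leaves out what such pairs shared at 26 weeks. With the replicate block, 8 members were called in perisynaptic and 20 in extrasynaptic muscle at 26 weeks, 0 in extrasynaptic muscle at 15 weeks and 0 for genotype by age there, where Lpl had an adjusted p of 0.0513.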
